A study of Daphnia magna with 12 samples.

Results

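The comparison of ZnO nanoparticles with the dissolved zinc salt ZnCl2 rests on 8 of the 12 zinc-experiment arrays, the 4 whose titles name ZnO and the 4 whose titles name ZnCl2, chosen by label alone. Gene expression was measured in whole bodies of the water flea Daphnia magna with 2-colour Agilent microarrays. The first group was kept for 96 h with ZnO nanoparticles, the second for 96 h with ZnCl2, and 4 further arrays hold animals kept for 96 h with neither (blank). Each zinc form was given at its own EC10 for immobilisation, the level that immobilises 10% of the animals, so the forms were matched by effect. Their concentrations were not used here, and copper exposures of the same study were not analysed here. All groups were kept in ISO test medium and fed the same algae, and medium and spike were renewed after 48 h. Each array holds RNA of 40 pooled daphnids, labelled with an age of 96 hours when sampled, and no strain, sex or clone is used here. The labelled 100 ng of RNA was hybridised against a zinc reference made of equal parts of ZnO, ZnCl2 and blank RNA. In each group 2 arrays carried the exposure sample in the dye Cy3 and 2 in Cy5.

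Zinc is an essential trace metal that many enzymes and transcription factors bind, and animal cells hold free zinc low with transporters and with metallothioneins, small metal-binding proteins. In excess it disturbs calcium uptake and growth of freshwater crustaceans. ZnO nanoparticles release zinc ions in water, and a question of such studies is whether the particle acts on transcripts beyond the zinc it releases. The contrast of particle with salt bears on that question, but dissolved zinc in the 2 groups was not used here, so particle effects and unequal dissolved zinc cannot be told apart. None of the 4318 probe identifiers was found in a RefSeq table of 28335 Daphnia magna genes, so probes are given by identifier, with no gene name or role, and the tissue label was not checked against marker genes.

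Each value is a deposited log2 ratio, with the exposure sample over the reference. The reference is in every array and cancels in the difference between groups. For the 17 probes that rose most with zinc, linear ratios averaged over the 3 groups had a median of 0.997, where an equal mixture gives 1; read as natural logs it was 1.12, as log10 2.10, and as log2 of reference over exposure 1.94. Array medians lay between -0.06 and 0.02, so a shift shared by most probes would not be visible. Arrays of the same dye orientation correlated at 0.04 to 0.58 among the zinc arrays, and the lowest correlation with a blank array was -0.32. Since the labels give the dye of every sample, and opposite values of exposed and blank animals are possible against their own mixture, no sign was changed. No label ties the pools to separate cultures; p-values thus reflect only how these pools vary, and that variation may be technical.

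ZnO and ZnCl2 animals did not differ at any single probe past the threshold. In a limma fit of the 8 zinc arrays with the dye orientation as a covariate, 0 of 4318 probes (0%) had a Benjamini-Hochberg adjusted p under 0.05, and the smallest adjusted p was 0.41. Before adjustment, 235 probes (5.44%) had a p under 0.05, where 215.9 are expected with no difference. Of these, 75 (1.74% of all probes) were higher and 160 (3.71%) lower in ZnO. With each array centred on its median that split was 120 higher and 111 lower, so the direction of the split depends on the centring. Once the dye term was removed, the 4 ZnO and the 4 ZnCl2 arrays did not overlap at 236 probes (5.47%). In whole-body pools, fewer cells of a type and less RNA per cell cannot be told apart.

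Of the 6 probes with the smallest p on the higher side, all but DM09565P2 differed by less than 1.5-fold. DM09565P2 had ratios of 0.24, 0.94, 0.89 and 0.42 on the ZnO arrays, against -0.59, -0.66, -0.45 and 0.07 on the ZnCl2 arrays and -0.59 to -0.24 on the blanks. Its ZnO arrays all lay above its ZnCl2 arrays, and the ZnCl2 arrays covered the range of the blanks. The difference was 1.03 (95% interval 0.54 to 1.52, limma adjusted p = 0.84). DM00226P3 had 0.19, 0.36, 0.16 and 0.04 in ZnO, against -0.11, -0.23, -0.17 and -0.15 in ZnCl2. Here all ZnO arrays were above 0 and all ZnCl2 arrays below it, and the gap in means was 0.35 (interval 0.16 to 0.55, adjusted p in limma 0.84). The other 4, DM05551P1, DM07605P3, DM02131P1 and DM12623P2, were higher in ZnO by 0.37, 0.37, 0.42 and 0.28. DM05551P1 and DM12623P2 did not overlap between the groups once the dye term was removed but did in the ratios as deposited. In these 2 probes the Cy3 arrays of both groups stood above the Cy5 arrays.

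On the lower side 1 probe stood clear of the rest. DM05207P1 had ratios of -0.24, -0.12, -0.60 and -0.35 in ZnO, against 0.44, 0.53, 0.47 and 0.59 in ZnCl2 and 0.15, -0.47, 0.08 and -0.66 in the blanks. The 4 salt arrays lay close together and above every ZnO and blank array, while ZnO and blank arrays overlapped. The difference was -0.83 (95% interval -1.09 to -0.58, 4 of 4 ZnO arrays below all ZnCl2 arrays), with an unadjusted p of 9.46e-05 and a limma adjusted p of 0.41. In Cy3 alone it was -0.66 and in Cy5 alone -1.005, which were also its extremes over 20 alternative settings, with limma adjusted p from 0.19 to 0.999. This was the smallest p of the table, so its size is favoured by the choice.

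DM07384P3 had 0.16, 0.33, -0.66 and -0.69 in ZnO, against 0.59, 0.86, 0.34 and 0.50 in ZnCl2 and -1.57 to -0.50 in the blanks. It rose with zinc by 1.14 on the log2 scale (mean of both zinc groups over blank). The ZnO mean lay between those of salt and blank, its lowest arrays overlapped the blanks, and it was 0.79 below the salt (interval -1.13 to -0.44, limma adjusted p = 0.84). DM11939P1, a probe that rose with zinc by 1.76, had 0.14, 0.23, -0.09 and 0.42 in ZnO, against 0.60, 0.65, 0.86 and 0.87 in ZnCl2. The groups did not overlap, and ZnO was 0.57 lower (interval -0.86 to -0.27). DM09218P3 was 0.46 lower in ZnO, DM02083P4 0.30 and DM15325P1 0.28, in each case with adjusted p of 0.84 in limma. DM09183P3, named for its wide gap, averaged -0.61 ± 0.59 in ZnO and 0.40 ± 0.18 in ZnCl2 (SD, n = 4), with ZnO replicate 1 at -1.49. Its blanks ran from -1.58 to 1.70, over the range of both zinc groups.

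**Figure D1:**
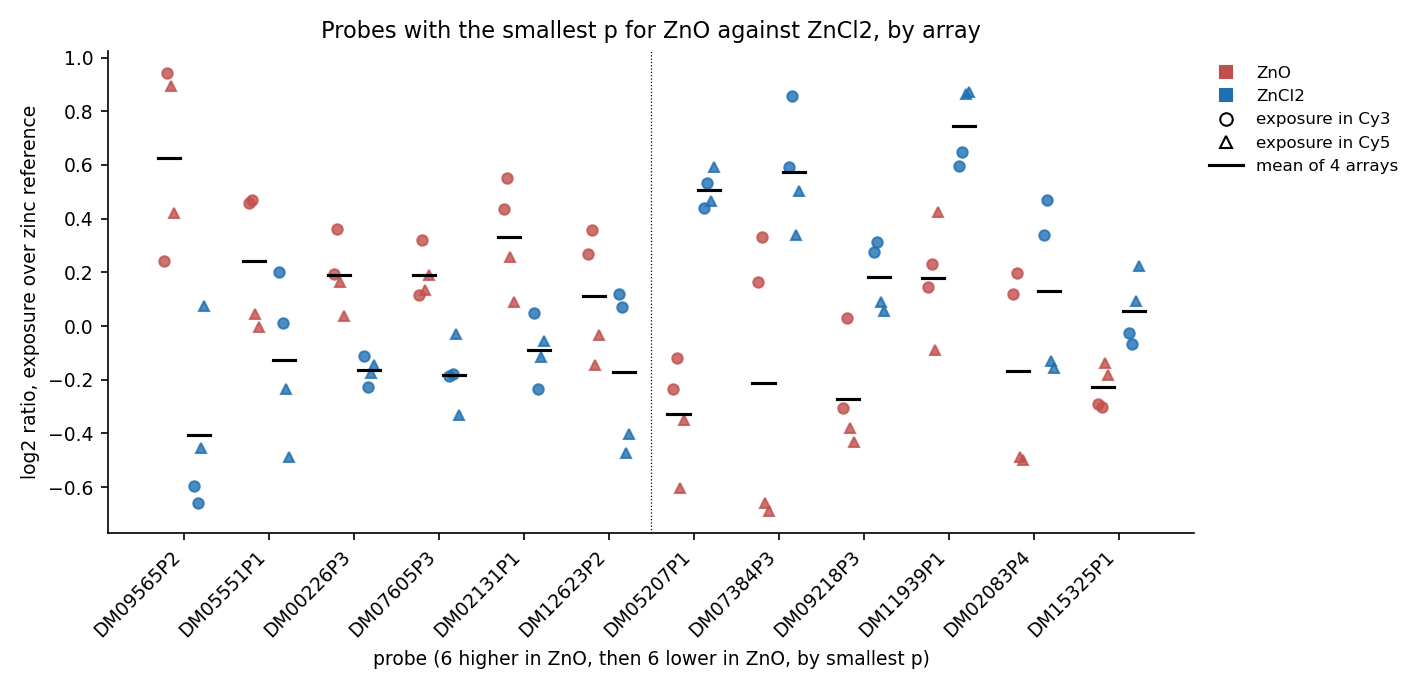
Log2 ratio of exposure sample over zinc reference (vertical axis) on each of the 4 ZnO arrays (red, left) and 4 ZnCl2 arrays (blue, right) for the 6 probes higher and the 6 lower in ZnO with the smallest p; circles are arrays with the exposure sample in Cy3, triangles in Cy5, and bars the mean of 4. DM05207P1 shows the clearest gap, with ZnO arrays from -0.60 to -0.12 and ZnCl2 arrays from 0.44 to 0.59; none of the 12 passed the adjusted threshold.

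The deposited ratios exclude large differences between particle and salt at most probes. Probe intensities were not used, so how many of these probes had signal over background is unknown. The 95% interval of the difference reached 0.28 to either side of the estimate at the median probe, a factor of 1.21. It lay wholly within 1.5-fold for 3352 probes (77.6%) and within 2-fold for 3911 (90.6%). It lay within 1.25-fold for 1368 (31.7%), within 3-fold for 4120 (95.4%) and within 4-fold for 4195 (97.2%). At the median probe the largest difference still inside the interval was 1.31-fold. These intervals are per probe and not adjusted over the table. Equivalence tested with a pair of 1-sided limma tests, with Benjamini-Hochberg adjustment over all probes, placed 3972 probes (92.0%) within 2-fold and 3497 (81.0%) within 1.5-fold. No probe (0 of 4318) could be placed within 1.25-fold in this way. A limma test for differences of more than 1.25-fold likewise passed at 0 probes.

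The tightest and the widest intervals lay far apart. DM01772P1 had ratios of -0.05, -0.03, 0.08 and 0.07 in ZnO, against -0.05, -0.03, 0.03 and 0.01 in ZnCl2, and its interval of -0.12 to 0.18 was the narrowest of the table. DM11377P2 and DM01875P1 followed, with intervals of -0.10 to 0.21 and -0.06 to 0.24. The widest was that of DM06709P1, from -4.03 to 2.82. Its ratios were -5.03, 0.34, -1.42 and -2.66 in ZnO, against -0.89, -5.45, -0.64 and 0.62 in ZnCl2. In each group a single array lay below -5, and the groups overlapped over nearly their whole range. DM06747P2 and DM07821P2 followed, with intervals of -3.36 to 2.84 and -3.66 to 2.46.

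**Figure D2:**
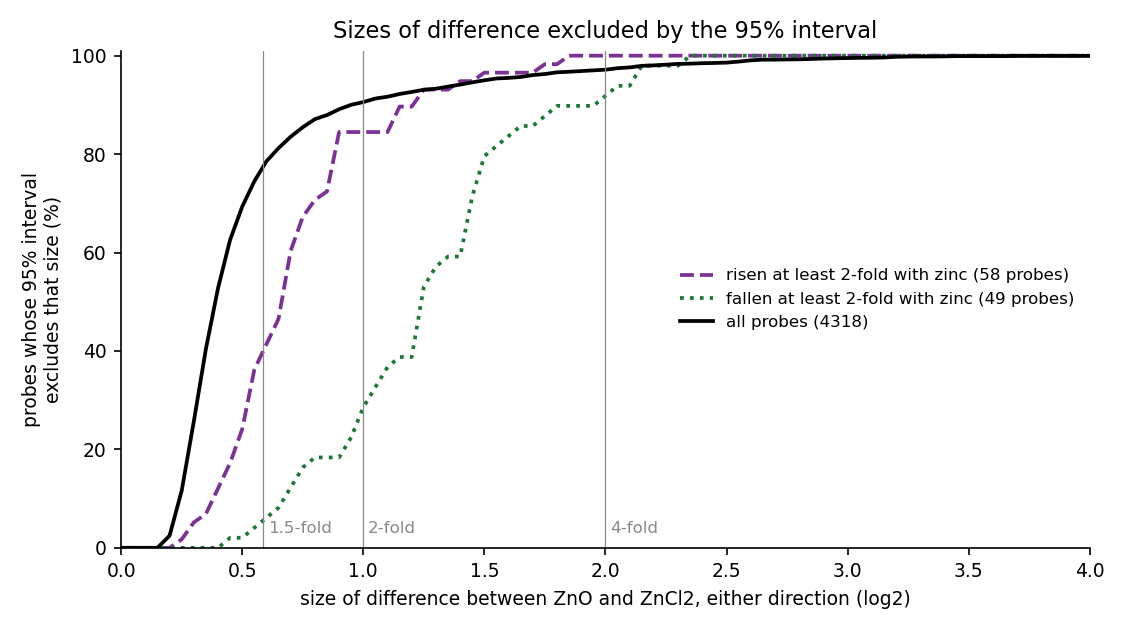
Share of probes (vertical axis, percent) whose 95% interval for ZnO minus ZnCl2 excludes a difference of the size on the horizontal axis (log2, either direction), for probes that rose at least 2-fold with zinc (dashed), probes that fell at least 2-fold (dotted) and all probes (solid). At 2-fold the shares are 84.5%, 28.6% and 90.6%.

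For 407 probes (9.43%) a 2-fold difference stayed inside the interval or was reached by it. They were picked on the interval of this same difference, so the following describes them and tests nothing. Their mean ratio on the 4 ZnO arrays was -0.98, -0.21, -0.13 and -1.04, against 0.12, -0.99, -0.20 and 0.04 on the ZnCl2 arrays and -0.32 to 0.50 on the blanks. ZnO replicates 1 and 4 and ZnCl2 replicate 2 thus stood apart, at about -1, and each of the other 5 zinc arrays lay within the range of the blanks. The lowest zinc array was 1 of these 3 for 344 of the 407 probes (84.5%), against 43.1% of the other probes. The 407 probes held 71.4% of the residual variance of the whole table, with a median residual SD of 0.80 against 0.16 in the others. Without those 3 arrays, 0 probes passed in limma (smallest adjusted p 0.39), and the interval lay within 2-fold for 4084. Those arrays were left out after their values were seen.

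Among probes that responded to zinc, particle and salt were compared by size of response. Zinc-responsive probes were those that passed when the zinc groups together were set against blank in a limma fit of all 12 arrays (586 probes, 13.6%), a contrast that does not use the difference between the forms. Of these, 365 rose and 221 fell. ZnO lay below ZnCl2 in 383 of the 586 (65.4%), against 55.8% of all probes, with a median difference of -0.05 against -0.02. Before adjustment 61 (10.4%) had a limma p under 0.05 for ZnO against ZnCl2, against 5.44% of all probes, and 48 of the 61 were lower in ZnO. At the median, the interval reached 0.283 to either side of the estimate in these probes, against 0.277 in all probes. The probes share arrays and that share was not tested, so no difference is read from it. The interval lay within 2-fold for 540 of the 586 (92.2%, against 90.6% of all probes) and within 1.5-fold for 441 (75.3%, against 77.6%). The 3 of them with the smallest p on the higher side, DM05726P3, DM08720P2 and DM09225P1, had all fallen with zinc (by 0.28, 0.41 and 0.34 on the log2 scale) and were 0.29, 0.29 and 0.30 higher in ZnO than in ZnCl2. DM08720P2 had -0.13, -0.08, 0.12 and 0.01 in ZnO, against -0.25, -0.37, -0.34 and -0.28 in ZnCl2 and 0.19 to 0.31 in the blanks, so its ZnO arrays lay between the others.

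In the probes that zinc raised most, the particle arrays lay lower than the salt arrays. Over the 17 probes that rose more than 4-fold, the mean ratio was 0.16, 0.38, 0.23 and 0.25 on the ZnO arrays, against 0.56, 0.79, 0.55 and 0.81 on the ZnCl2 arrays and -2.43 to -2.35 on the blanks. The ZnO and ZnCl2 arrays did not overlap. The means were 0.26 ± 0.09 in ZnO and 0.68 ± 0.14 in ZnCl2 (SD, n = 4), a difference of -0.42, so the ZnO level was 0.746 of the ZnCl2 level. It was -0.40 in Cy3 alone and -0.44 in Cy5 alone. ZnO was lower at 16 of the 17 probes, against 55.8% of all probes, and at 15 of the 17 in both dye orientations, against 29.1% of all probes. An unadjusted p under 0.05 was found at 7 of the 17 (41.2%), all lower in ZnO, against 5.44% of all probes. That count changed with single arrays: it was 12, 3, 4 and 2 without ZnCl2 replicates 1, 2, 3 and 4 in turn. Without ZnO replicates 1, 2, 3 and 4 in turn it was 5, 4, 5 and 9. In these refits with 1 array left out, ZnO was lower at 16 or 17 of the 17. The median difference lay between -0.49 and -0.35. The count was 1 in Cy3 alone, 7 in Cy5 alone, 2 without the 3 arrays that stood apart and 0 with the Cy3 ratios turned. As deposited, the blanks averaged -2.35 and -2.40 in Cy3 and -2.41 and -2.43 in Cy5 over the 17. Turning the Cy3 ratios gives the blanks of the 2 dyes opposite signs. None of the 17 passed after adjustment over the table (smallest limma adjusted p 0.84). The 4-fold limit was chosen with these values in view and the probes share arrays, so no test of the set is given.

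The 17 were not all alike. DM11283P1, which rose 24.1-fold over blank, had ratios of 0.61, 0.80, 0.45 and 0.66 in ZnO, against 0.79, 0.69, 0.45 and 0.51 in ZnCl2 and -4.06 to -3.83 in the blanks. The zinc groups overlapped over most of their range, and the difference was 0.02 with an interval of -0.19 to 0.22, so a difference of more than 1.16-fold was excluded at 95% per probe. It was the only 1 of the 17 with ZnO not lower, and its sign changed in 7 of 20 alternative settings. DM08568P3, which rose 16.8-fold, had 0.33, 0.56, 0.06 and 0.15 in ZnO, against 0.64, 0.94, 0.48 and 0.88 in ZnCl2. It was lower in ZnO by 0.46 (interval -0.76 to -0.16), and the arrays separated within each dye. DM07245P2, which rose 12.5-fold, had 0.24, 0.42, 0.48 and 0.07 in ZnO, against 0.49, 0.55, 0.76 and 0.87 in ZnCl2. It was lower by 0.37 (interval -0.66 to -0.07), with every ZnO array below every ZnCl2 array.

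DM10766P2 had -0.05, 0.53, 0.02 and 0.02 in ZnO, against 0.76, 0.60, 0.63 and 0.76 in ZnCl2. It was lower in ZnO by 0.56 (interval -0.88 to -0.24). ZnO replicate 2 lay near the salt arrays there and the other 3 ZnO arrays lay close together near 0. DM08742P3 was 0.22 lower in ZnO, with an interval of -0.48 to 0.03 that included 0. DM02665P1, with the largest rise of all (52.6-fold), had -1.13, 0.60, 0.79 and 0.68 in ZnO, against 0.96, 0.47, 0.85 and 1.01 in ZnCl2. Its difference of -0.59 had a wide interval (-1.46 to 0.29), and ZnO replicate 1 lay far below the other 3. Without that array the difference was -0.16, and in Cy5 alone it was -0.19. Named after their values were seen, DM01268P2, DM06656P1, DM07986P1 and DM02665P1 were the 4 of the 17 whose interval reached 2-fold. For the other 13 a 2-fold difference was excluded.

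**Figure D3:**
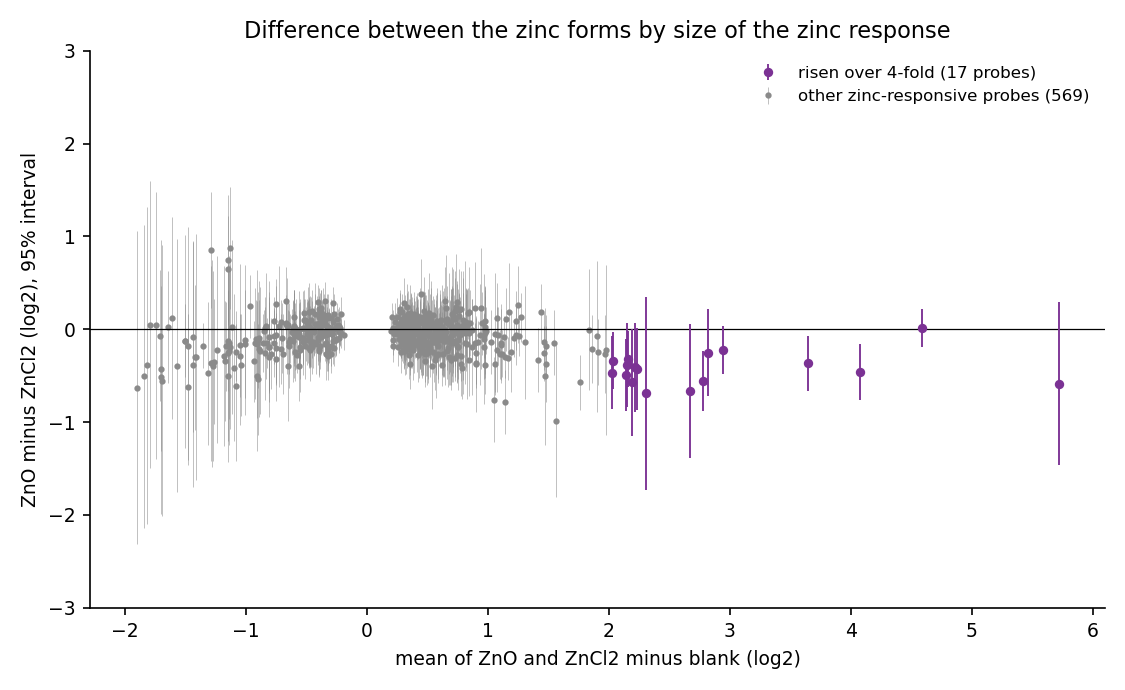
Difference between ZnO and ZnCl2 (vertical axis, log2, bars are 95% intervals) against the mean zinc response over blank (horizontal axis, log2) for the 586 zinc-responsive probes; the 17 that rose over 4-fold are in purple. All but 1 of the 17, DM11283P1, lie below 0, and intervals are widest among the probes that fell most.

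Weaker rises showed a smaller difference. The 41 probes that rose 2- to 4-fold averaged 0.30, 0.44, -0.10 and 0.19 on the ZnO arrays, against 0.41, 0.66, 0.23 and 0.30 on the ZnCl2 arrays. The groups overlapped, with a difference of -0.19, and ZnO was lower at 34 of the 41 probes (82.9%). Median differences were -0.43 in the 17 strongest, -0.16 in these 41, -0.03 in the 149 that rose by 0.5 to 1 on the log2 scale and -0.03 in the 158 that rose less. Every one of those 149 and 158 probes had an interval within 2-fold. At the median, the interval reached 0.33 to either side in the 149 and 0.22 in the 158, against 0.28 in all probes. Small rises pass against blank only where the spread over arrays is low. The narrow intervals of the 158 are thus favoured by the choice of probes. Of the 58 that rose at least 2-fold, 49 (84.5%) had an interval within 2-fold and 24 (41.4%) within 1.5-fold.

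Among the 221 probes that zinc lowered, the interval lay within 2-fold for 184 (83.3%), and precision was low in those that fell most. The 49 that fell at least 2-fold averaged -1.17, -0.41, -0.29 and -1.13 on the ZnO arrays, against -0.42, -1.27, -0.50 and -0.08 on the ZnCl2 arrays and 0.50 to 1.19 on the blanks. The same 3 arrays that stood apart above were lowest, and the zinc groups overlapped. The overall difference of -0.19 was made up of 0.05 in Cy3 and -0.42 in Cy5. The part of these 3 arrays in the difference was not tested. Only 14 of the 49 (28.6%) had an interval within 2-fold, against 90.6% of all probes. DM12115P1, with the largest fall (1.90 on the log2 scale), had -2.59, -0.35, -0.81 and -2.28 in ZnO, against -0.24, -2.60, -0.72 and 0.04 in ZnCl2, and its interval of -2.31 to 1.06 allowed differences of more than 2-fold in both directions. DM12567P1, DM04316P1, DM06979P1 and DM04579P3 had the next largest falls, and their differences were -0.51, -0.39, 0.05 and 0.04, with intervals that all reached -1.40 or lower and 1.13 or higher. Smaller falls were measured more tightly. Of the 73 probes that fell by 0.5 to 1 on the log2 scale, 71 had an interval within 2-fold, and for all 99 that fell by less than 0.5 it lay within 1.5-fold.

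**Figure D4:**
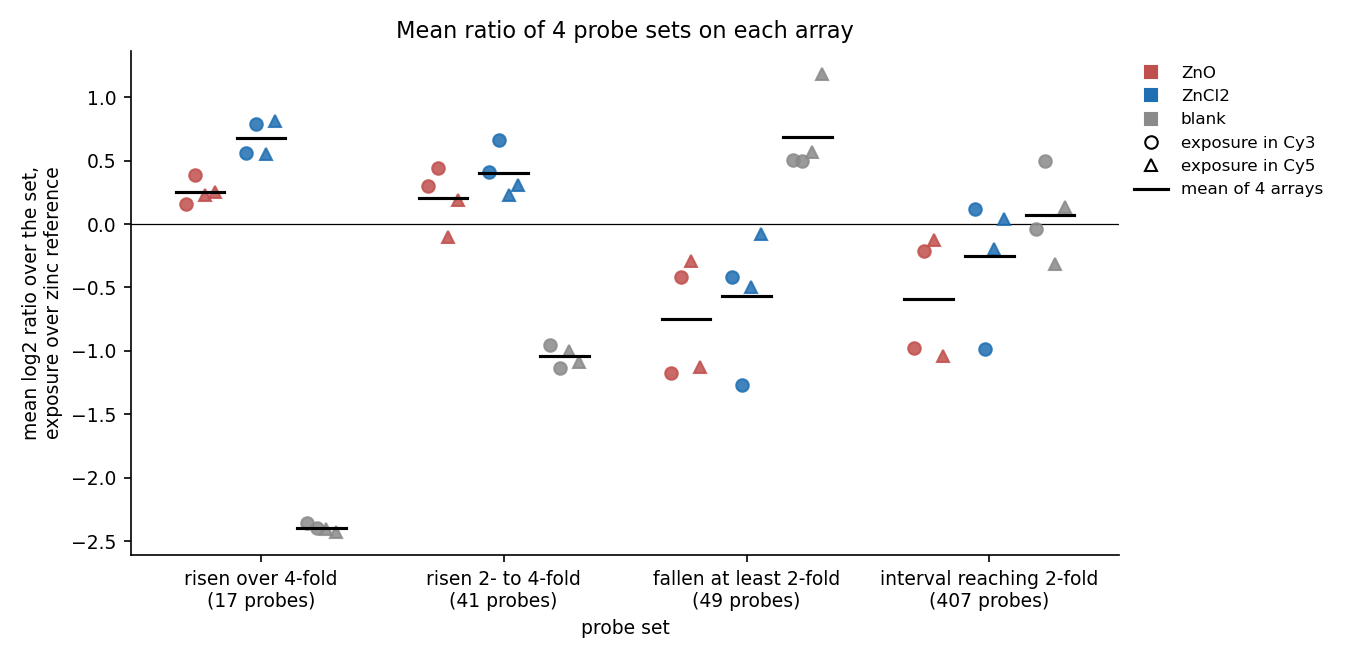
Mean log2 ratio over 4 sets of probes (vertical axis) on each ZnO (red), ZnCl2 (blue) and blank (grey) array; circles are arrays with the exposure sample in Cy3, triangles in Cy5, and bars the mean of 4. For the 17 probes that rose over 4-fold the ZnO arrays (0.16 to 0.38) lie below the ZnCl2 arrays (0.55 to 0.81), while in the sets at the right ZnO replicates 1 and 4 and ZnCl2 replicate 2 lie near -1.

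The size of the zinc response was then scored on each array as a whole. Each zinc array, less the blanks of its own dye, was regressed over all probes on the zinc response seen in the arrays of the other dye, so that no scored array was part of its own axis. The slopes were 0.68, 0.56, 0.41 and 0.93 in ZnO, against 0.57, 1.12, 0.60 and 0.44 in ZnCl2. The groups overlapped almost completely, at 0.65 ± 0.22 in ZnO and 0.68 ± 0.30 in ZnCl2 (SD, n = 4). The highest slopes were those of ZnO replicates 1 and 4 and ZnCl2 replicate 2, the arrays that stood apart above. These arrays also enter the axis for the other dye, so the spread of the slopes carries their values. The difference was -0.04 (exact two-sided permutation p = 0.80, where 0.029 is the smallest p possible), or -0.23 in Cy3 alone and 0.15 in Cy5 alone. This permutation over 70 splits left the dye out, though Cy3 and Cy5 arrays were scored on different axes. Inverting the exact permutation test gave an interval of -0.71 to 0.49, so the 8 arrays did not exclude a response of the particle well below or well above that of the salt on this scale. Without ZnCl2 replicate 2 the difference was 0.07 and without ZnO replicate 4 it was -0.14. Without all 3 arrays that stood apart, left out after their values were seen, it was -0.11.

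Rising and falling probes behaved differently on this scale. Over the 365 rising probes the slopes were 0.78, 0.92, 0.77 and 0.85 in ZnO, against 0.96, 1.03, 0.86 and 0.95 in ZnCl2. The spread was small and the groups overlapped only slightly, with a difference of -0.12 (-0.14 in Cy3, -0.10 in Cy5). Within each dye both ZnO slopes lay below both ZnCl2 slopes, and the overlap was between arrays of different dyes. Over the 221 falling probes they were 1.07, 0.28, 0.58 and 1.27 in ZnO, against 0.35, 1.16, 0.71 and 0.47 in ZnCl2. Here ZnO replicates 1 and 4 and ZnCl2 replicate 2 again had the highest slopes, and the difference of 0.13 was smaller than the SD of either group (0.45 in ZnO and 0.36 in ZnCl2). These lists were chosen on zinc against blank with all arrays, and no test is given for them.

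**Figure D5:**
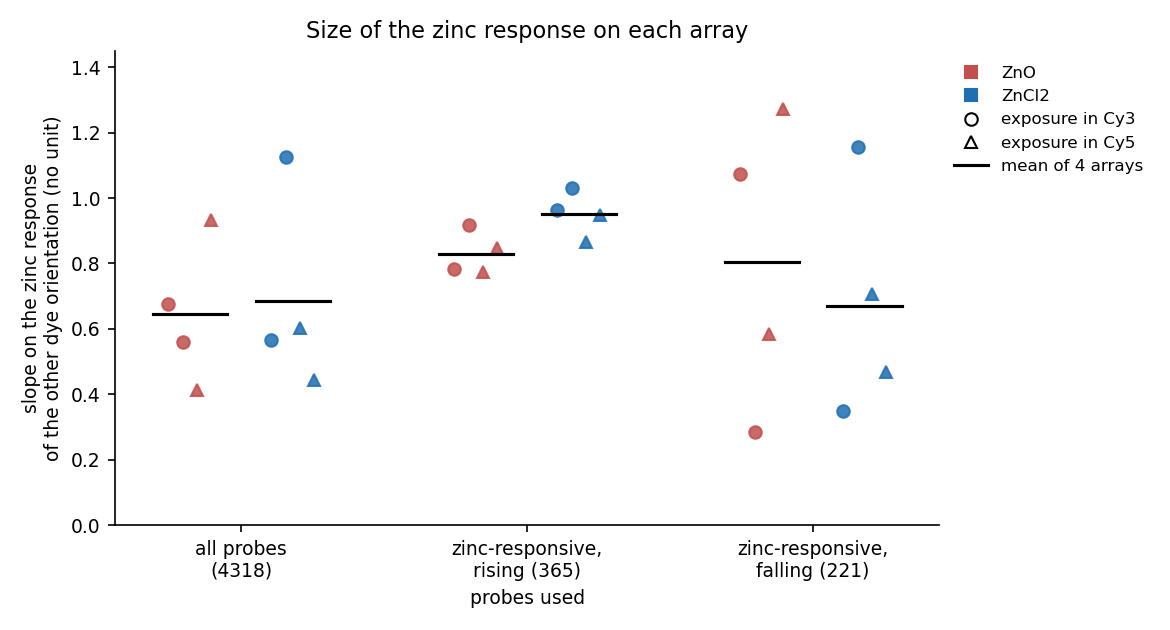
Slope of each zinc array on the zinc response of the other dye orientation (vertical axis, no unit) over all probes, the 365 rising and the 221 falling zinc-responsive probes, for ZnO (red) and ZnCl2 (blue); circles are arrays with the exposure sample in Cy3, triangles in Cy5, and bars the mean of 4. Slopes over rising probes are tight, at 0.77 to 0.92 in ZnO and 0.86 to 1.03 in ZnCl2, and those over falling probes spread from 0.28 to 1.27.

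Averaged over all pairs, arrays of different zinc forms were as close to each other as arrays of the same form. Within a dye, the median absolute difference between a ZnO and a ZnCl2 array was 0.14 to 0.22 on the log2 scale over 8 pairs, with a mean of 0.18. Between 2 arrays of the same form it was 0.15 to 0.22 over 4 pairs, also with a mean of 0.18. The share of probes that differed by more than 2-fold was 1.07% to 7.46% between forms and 1.34% to 6.65% within a form. The arrays that stood apart are unevenly spread over these pairs. The only same-form pair without one, ZnCl2 in Cy5, differed by 0.145. ZnO replicate 3 differed from those ZnCl2 arrays by 0.177 and 0.174. In Cy3, ZnO replicate 2 and ZnCl2 replicate 1 differed by 0.142.

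No probe showed a difference between forms that depended on the dye orientation past the threshold. A test of the interaction of zinc form with dye orientation passed at 0 of 4318 probes (0%) in limma, with 186 (4.31%) at an unadjusted p under 0.05, where 215.9 are expected with no interaction. The probe with the smallest p, DM08234P1, had a difference of 0.75 in Cy3 and of -0.72 in Cy5 (limma adjusted p = 0.91 for the interaction). Across all probes, which share arrays and are not independent, the difference within the Cy3 arrays correlated with that within the Cy5 arrays at -0.16 (Pearson) and -0.03 (Spearman). The zinc response, measured the same way, correlated at 0.66 and 0.49. Among the 407 probes of wide interval the correlation of differences was -0.39, among the 586 zinc-responsive probes it was 0.15, and among the 3911 bounded probes -0.05.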

How the data were processed

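Per the submitters' processing notes, the authors used limma. The deposited table holds log2 ratios of exposure sample over zinc reference for 4318 probes and 12 arrays, with 0 missing values. Background correction, within-array normalization, the choice of probes and the direction and base of the logs have no entry in the labels (not given in the sources used here); direction and base were checked on the values. Probe intensities were not used here, so signal over background is unknown, and the number of arrays limits the precision. No 2 arrays were identical.

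All probes were fitted together with lmFit and eBayes of limma 3.58.1 in R 4.3.3, using the 4 ZnO and 4 ZnCl2 arrays with a dye term (5 residual degrees of freedom). Two-sided p-values were adjusted by Benjamini-Hochberg over the whole table, and 0.05 was the threshold. Bounds come from 95% intervals and from paired 1-sided moderated tests. Groups come from the titles. Zinc-responsive probes come from 1 fit of all 12 arrays. Slopes were compared by exact permutation. The scripts were tested on simulated data.

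Named probes are the 6 on each side with the smallest p, the 5 largest rises and falls, the 3 widest and 3 narrowest intervals, the 3 zinc-responsive probes on each side with the smallest p, and the 3 on each side with the widest gap. The groups, the probe sets and these rules were chosen with earlier results of these data known. Alternatives covered the arrays used, dye term, centring, scaling, weights, moderation, probe filter and single arrays.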

Additional observations from a re-analysis of the deposited data

Results flagged for a closer look

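Of 74 groups of 4 values, 5 held an array whose gap to the nearest other was unusually wide for its group. A rate of 1 in 20 would give 3.7. Many of the groups are probes picked on these data for extreme values, and they share arrays, so that number is no measure of chance here. On DM02665P1, ZnO replicate 1 had a ratio of -1.13, against 0.60 to 0.79 on the other ZnO arrays. On DM09183P3 it was again ZnO replicate 1, at -1.49 against -0.40 to -0.23. On DM10766P2, ZnO replicate 2 lay at 0.53, against -0.05 to 0.02 on the other ZnO arrays. On DM06747P2, ZnCl2 replicate 2 lay at -5.36, against -0.21 to 0.67 on the other ZnCl2 arrays, and on DM07821P2 at -5.13, against -0.16 to 0.82.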

How the results depend on the processing

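No probe passed for ZnO against ZnCl2 in limma under any of 21 alternatives, with a smallest adjusted p between 0.19 and 0.999 and 114 to 280 probes at an unadjusted p under 0.05. Leaving out 1 array at a time gave 0 calls, 3036 to 3278 probes within 1.5-fold, 3808 to 3941 within 2-fold and 3897 to 4017 by the paired 1-sided tests. Within the Cy5 arrays 2145 probes lay within 1.5-fold. Zinc-responsive probes numbered 292 with no dye term and 895 at an adjusted p under 0.1. With the replicate number as a block, 0 probes passed, 195 had an unadjusted p under 0.05, 3226 lay within 1.5-fold and 3868 within 2-fold, and the slope difference was -0.04 (exact permutation p = 0.875). Same-numbered arrays had residual correlations of -0.40, -0.61, -0.13 and -0.66. A fit with group and dye terms itself pulls such correlations below 0, so pairing by number was neither shown nor excluded. The slope difference turned to 0.090 with the axis from the same orientation and to 0.15 within the Cy5 arrays, and ranged from -0.14 to 0.073 with single arrays left out, turning positive without ZnO replicate 3 (0.041) or ZnCl2 replicate 2 (0.073). The cause was not tested. Over the 17 strongest rises ZnO was lower at 15 to 17 probes under the alternatives, except with the Cy3 ratios turned (11 of 17, median difference -0.06). That setting gives the blanks of the Cy3 and Cy5 arrays opposite signs on these probes.

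Of 651 refits of the 33 named probes, 31 changed sign, in 8 probes. Within the Cy3 arrays the difference was -0.039 for DM11283P1, 0.0022 for DM12567P1, 0.18 for DM04316P1, 0.82 for DM06709P1, 1.02 for DM06747P2 and 0.73 for DM07821P2. Within the Cy5 arrays it was -0.65 for DM06979P1 and -0.62 for DM04579P3. For DM11283P1 it was -0.053 with arrays scaled to one spread, -0.0056 with array weights and -0.016 without the 3 arrays that stood apart, a setting chosen after seeing the data. With single arrays left out the ranges were -0.037 to 0.065 for DM11283P1, -1.08 to 0.074 for DM12567P1, -1.01 to 0.12 for DM04316P1, -0.60 to 0.55 for DM06979P1, -0.58 to 0.48 for DM04579P3, -1.96 to 0.18 for DM06709P1, -1.54 to 0.66 for DM06747P2 and -1.89 to 0.23 for DM07821P2. Signal over background is unknown, so what it limits was not assessed.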
